A study of Mus musculus with 6 samples.

Results

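The tricarboxylic acid cycle oxidises acetyl groups in the mitochondrial matrix and hands their electrons to the respiratory chain, and muscle fibres draw on it for sustained work. Transcripts of 9 genes for its enzymes were examined in mouse calf muscle that overexpresses integrin alpha7, and in wild type muscle. The genes were Cs, Idh3a, Idh3b, Idh3g, Ogdh, Suclg1, Sucla2, Fh1 and Mdh2, chosen by name, with earlier results of these data known. Every Affymetrix probe set annotated with exactly 1 of these symbols was taken, which gave 21 probe sets of the 45037 on the array that were not controls. No probe set with several symbols held a member. None of the 9 genes differed between the genotypes past an adjusted p of 0.05, and for most of them the data bound the difference tightly.

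The animals were female mice 5 weeks old, not fasted, of the SJ6/C57BL6 background, and the tissue was gastrocnemius and soleus muscle in its basal state. The transgenic group carried an integrin alpha7 transgene, driven by a promoter that the labels do not name, and the control group was wild type. The titles of the controls also carry the word intronic, whose meaning the labels do not explain. Each array held RNA pooled from 6 animals, with 3 arrays and 18 animals for each genotype, so that differences between single animals were averaged within a pool. The comparison asks which transcripts of the muscle change when this laminin receptor chain is overexpressed. Whole muscle was used, so fewer cells of a type and less RNA per cell cannot be told apart.

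Array medians of the deposited signal were 34.0 to 38.4. The 3′ to 5′ signal ratio of the control probe sets was 0.778 to 0.809 for Gapdh and 0.805 to 0.959 for actin. The transgene was visible on every transgenic array, since Itga7 read 254, 308 and 313 on the wild type arrays against 2498, 2144 and 2072 on the transgenic ones. Skeletal muscle markers were abundant, with all 7 genes of the general fibre list above the filter on dim signals described next. Arrays were hybridised in 2 rounds. Replicates 1 and 2 of both genotypes were in the first round and replicate 3 of both was in the second.

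Probe sets entered the test where their mean lay above a signal of about 21.7, the 40th percentile of all probe sets. Of the 21 member probe sets 19 passed, and all 9 genes had at least 1 among them. The other 2 probe sets, both of Sucla2, are given by value only. Of the 19, 15 had a wild type mean signal over 1000, and these are called bright here. Differences are transgenic minus wild type on the log2(signal + 16) scale. Signals of different probe sets depend on their probes, so levels were not compared between genes.

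The cycle is entered through citrate synthase, encoded by Cs, which joins acetyl-CoA to oxaloacetate and serves widely as a marker of mitochondrial content. The brightest probe set of Cs, 1450667_a_at, read 7083, 7323 and 7804 on the wild type arrays against 7208, 7416 and 7178 on the transgenic ones. The transgenic values lay within the range of the wild type ones. The difference was -0.03 (95% interval -0.14 to 0.09), with an adjusted p of 0.944 in limma. A further probe set, 1422578_at, read 4964, 5006 and 4968 on the wild type arrays against 4831, 4692 and 4865 on the transgenic ones. Here every transgenic array lay below every wild type array, by a margin that made a difference of only -0.05, with an adjusted p of 0.837. The remaining one, 1422577_at, had group means of 3376 ± 94.9 and 3318 ± 159 (SD, n = 3) and a difference of -0.03. All 3 probe sets of Cs therefore gave negative differences of 0.963-fold to 0.982-fold, none past the threshold, and the interval of the most negative one ended at 0.892-fold.

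**Figure D1:**
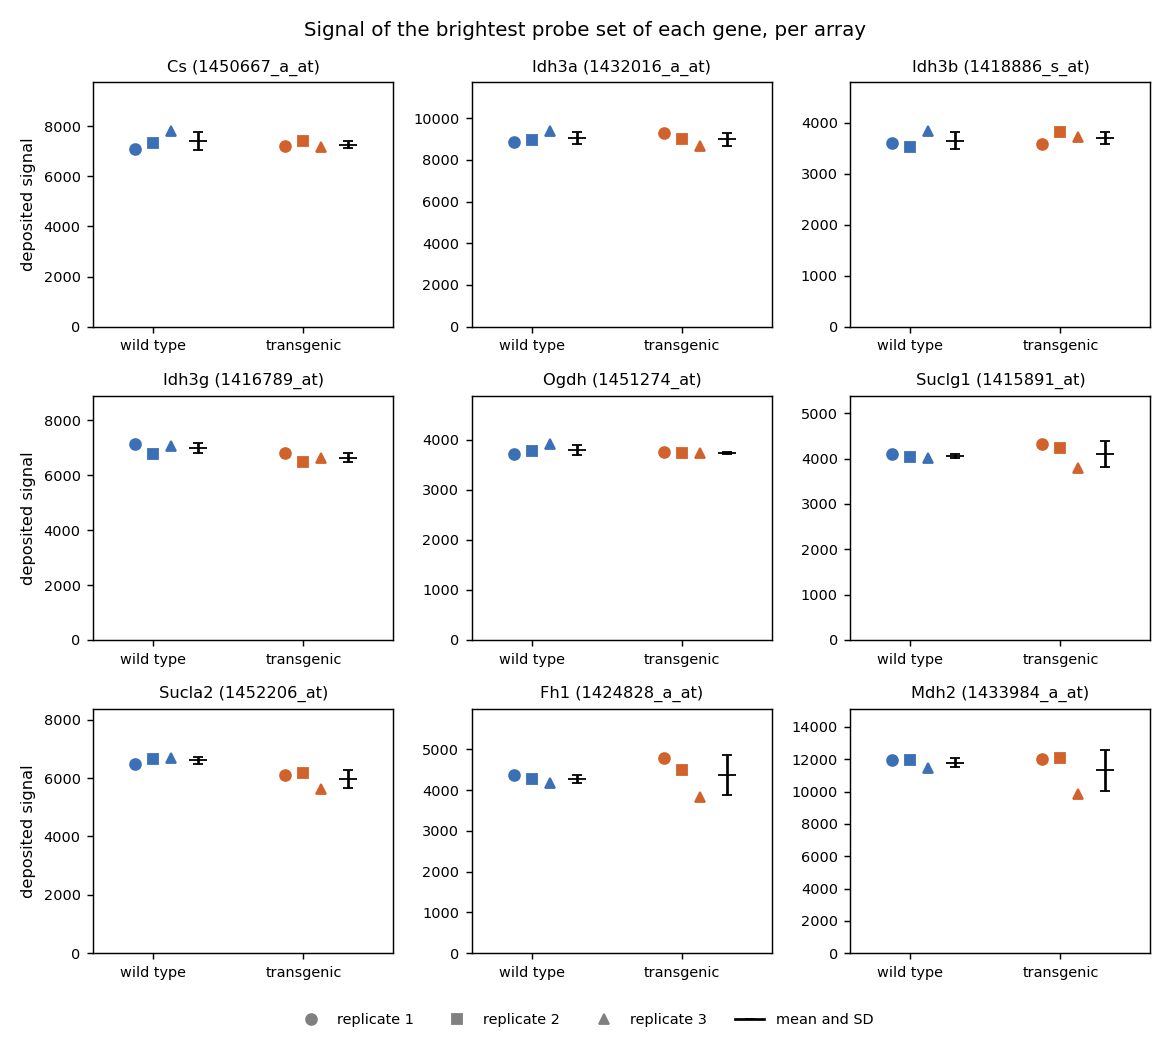
Deposited signal (linear, vertical axis from 0) of the brightest probe set of each of the 9 genes on the 3 wild type (blue) and 3 transgenic (orange) arrays; marker shapes give the replicate and the black bar the mean and SD. The groups overlap for every gene but Sucla2, and transgenic replicate 3 is the lowest array for Idh3a, Suclg1, Sucla2, Fh1 and Mdh2.

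Isocitrate dehydrogenase of the NAD-dependent kind is built from a catalytic alpha subunit and the beta and gamma subunits. It is a regulated step of the cycle, activated by ADP and calcium. The alpha subunit gene Idh3a read 8869, 8934 and 9377 on the wild type arrays against 9277, 8995 and 8678 on the transgenic ones, by its brightest probe set, 1432016_a_at. The groups overlapped, and the difference was -0.01 (95% interval -0.12 to 0.10), at an adjusted p of 0.974. The 2 other bright probe sets of Idh3a gave 0.02 and -0.02. Its dim probe set, 1447701_x_at, gave 143.6 ± 20.9 and 135.2 ± 35.0 (SD, n = 3) and a difference of -0.10, with the wide interval of -0.50 to 0.30. Names ending in _x_at or _s_at mark probe sets whose probes can match other transcripts too, so this value, and those of other such probe sets here, are less sure to be of the named gene alone.

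The beta subunit gene Idh3b read 3598, 3518 and 3837 on the wild type arrays against 3587, 3818 and 3719 on the transgenic ones, by 1418886_s_at. The groups overlapped with a difference of 0.02 (95% interval -0.10 to 0.15) and an adjusted p of 0.955. A dimmer probe set of Idh3b, 1418885_a_at, gave 0.06 and the dimmest, 1441271_at, gave -0.15, both with intervals that held 0. The gamma subunit gene Idh3g gave 7122, 6780 and 7075 against 6820, 6498 and 6620 on 1416789_at. The highest transgenic array lay just above the lowest wild type array, and the difference was -0.07 (95% interval -0.18 to 0.04), with an adjusted p of 0.779. The other probe set of Idh3g gave -0.03. None of the subunits had a probe set past the threshold, and over the 6 bright probe sets of the enzyme the differences ran from -0.07 to 0.02.

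Ogdh encodes the E1 subunit of the 2-oxoglutarate dehydrogenase complex, which makes succinyl-CoA. Its bright probe set, 1451274_at, read 3707, 3780 and 3904 on the wild type arrays against 3759, 3733 and 3728 on the transgenic ones. The transgenic arrays were close together within the wild type range, and the difference was -0.02 (95% interval -0.14 to 0.09), at an adjusted p of 0.954. The dim probe set 1445632_at read 83.7, 71.8 and 63.6 on the wild type arrays against 46.0, 56.8 and 46.4 on the transgenic ones, so that the groups did not overlap. This was the most negative difference among the tested probe sets, at -0.44 (95% interval -0.82 to -0.05), at 0.0307 for limma's unadjusted p and 0.583 for the adjusted p. The intervals of the 2 probe sets of Ogdh overlap, and the difference between them was not tested. Which transcript the dim one measures was not tested. The partner subunits, which were not among the 9 genes, gave -0.03 for Dlst, the E2 subunit, and -0.05 for Dld, the E3 subunit shared with pyruvate dehydrogenase.

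Succinyl-CoA synthetase turns succinyl-CoA into succinate while making a nucleoside triphosphate. It pairs the alpha subunit of Suclg1 with either the ADP-using beta subunit of Sucla2 or the GDP-using one of Suclg2. Suclg1 read 4112, 4044 and 4022 on the wild type arrays against 4311, 4237 and 3784 on the transgenic ones, by its probe set, 1415891_at. Transgenic replicates 1 and 2 lay above all wild type arrays and replicate 3 below them. The difference was 0.02 (95% interval -0.12 to 0.15), with an adjusted p of 0.973. Sucla2 read 6478, 6657 and 6694 on the wild type arrays against 6111, 6187 and 5632 on the transgenic ones, by 1452206_at. Every transgenic array was lower than every wild type array. The difference was -0.15 (95% interval -0.27 to -0.03), which is 0.904-fold, with limma's unadjusted p of 0.0206 and adjusted p of 0.539. Without transgenic replicate 3 it was -0.10. The beta subunit gene Suclg2, not among the 9, gave -0.00 (95% interval -0.19 to 0.19) on its brightest probe set. The 2 dim probe sets of Sucla2 had wild type means of 17.4 and 20.9 and transgenic means of 14.7 and 12.7, with overlapping groups.

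Fumarate hydratase, encoded by Fh1, adds water to fumarate to give malate. Its probe set, 1424828_a_at, read 4370, 4263 and 4168 on the wild type arrays against 4791, 4483 and 3833 on the transgenic ones. As for Suclg1, transgenic replicates 1 and 2 lay above the wild type arrays and replicate 3 below them. The difference was 0.03 (95% interval -0.14 to 0.20), with an adjusted p of 0.958.

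Malate dehydrogenase of the mitochondrion, encoded by Mdh2, closes the cycle by restoring oxaloacetate. On 1416478_a_at it read 11496, 10914 and 11501 on the wild type arrays against 10764, 10081 and 9236 on the transgenic ones, with every transgenic array the lower. The difference was -0.18 (95% interval -0.31 to -0.04), which is 0.886-fold, with limma's unadjusted p of 0.0133 and adjusted p of 0.486, the smallest of the 19. The other probe set, 1433984_a_at, gave 11981, 11942 and 11459 against 12012, 12089 and 9839, so transgenic replicates 1 and 2 were the highest of the 6 arrays. Its difference was -0.07 (95% interval -0.23 to 0.09), with an adjusted p of 0.872. Leaving out transgenic replicate 3 gave -0.12 for the former and 0.03 for the latter. Both probe sets of Mdh2 were thus moved toward lower values by this array, and they did not share a sign without it.

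**Figure D2:**
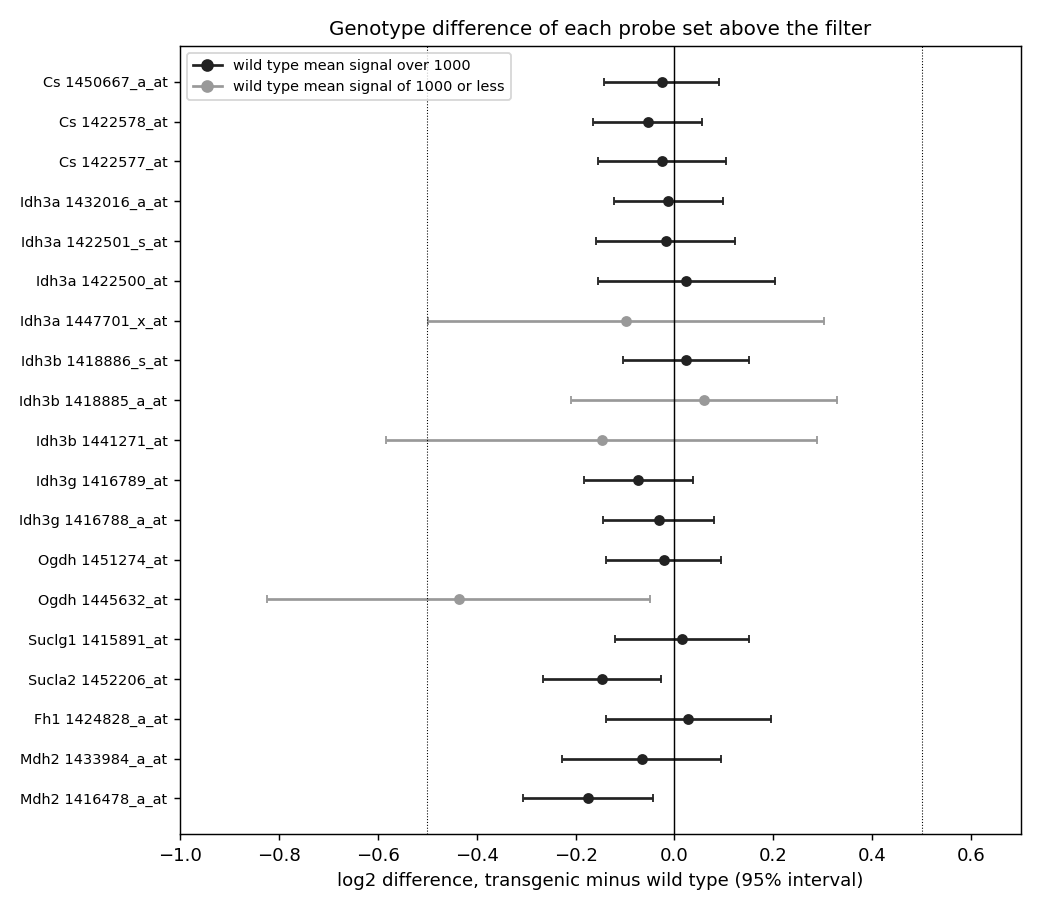
Log2 difference (transgenic minus wild type, horizontal axis) with its 95% interval in limma for the 19 tested probe sets; black points have a wild type mean signal over 1000, grey points a lower one, and dotted lines stand at -0.5 and 0.5. The 15 bright probe sets lie between -0.18 and 0.03 with all intervals inside the dotted lines, and the most negative point, a dim probe set of Ogdh, has a far wider interval.

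In the test over all 27022 probe sets 33 were called at an adjusted p of 0.05, or 0.122%, and 0 of the 19 member probe sets were among them. At limma's unadjusted p under 0.05 there were 3 of the 19, those of Mdh2, Sucla2 and Ogdh named above, where 7.85% of all tested probe sets reached it. The transgenic arrays were all below the wild type arrays for 4 of the 19, again these 3 and 1 of Cs, against a background of 7.50%. They were all above for 0 of the 19, against 5.85%. Among bright probe sets 3 of the 15 were separated downward, where the share over all 2206 bright probe sets was 10.9%. Of the 19 probe sets 14 had negative and 5 positive differences, and of all tested probe sets 52.6% were negative. With equal array medians, which shifts the median of all probe sets from -0.01 to 0.04, 8 of the 19 were negative. With quantile normalization, where that median was 0.0009, 13 of the 19 were negative. In the first round of hybridisation alone it was 6 of the 19, and without transgenic replicate 3 it was 11. The balance of signs thus differed between scalings and between sets of arrays.

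Over the 15 bright probe sets the differences ran from 0.886-fold to 1.02-fold, and all 15 intervals lay within 0.5 log2 units of no difference, a span of 29.3% lower to 41.4% higher. Of the 19 tested, 17 intervals lay within this bound, where 47.9% of all tested probe sets and 95.3% of all bright ones did. Intervals reached 0.13 to either side of the difference in the median of the 19, against 0.37 over all probe sets. For the bright members alone this reach was 0.128, against 0.155 over all bright probe sets, so the precision was near that of other bright probe sets. Over the 9 genes, each by its brightest probe set, the median difference was -0.02, and over the brightest probe sets of all 12942 genes it was -0.00. The intervals bound the change of each bright probe set, and do not show that it was 0.

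The transgenic arrays differed from one another by more than the genotype means did when the 9 genes were averaged. Averaged over the brightest probe sets of the 9 genes and set against the wild type mean, the wild type arrays stood at -0.01, -0.01 and 0.02 and the transgenic ones at 0.01, 0.00 and -0.10. Transgenic replicate 3 was the lowest array for 8 of the 15 bright probe sets and the highest for 0. Over all bright probe sets it was the lowest for 28.3% and the highest for 24.8%. Its weight in the fit with array weights was 0.595, against 0.976 to 1.38 for the other arrays. Wild type replicate 3 was the highest for 10 of the 15, against 17.3%. Both were hybridised in the second round. Within the first round, which held 2 arrays of each genotype, the median difference over the 9 genes was 0.02, and between the 2 arrays of the second round it was -0.11. The sign of the median thus differed between the rounds. Over all bright probe sets transgenic replicate 3 stood at -0.02. The part of the round, the pool or the array in this was not tested.

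**Figure D3:**
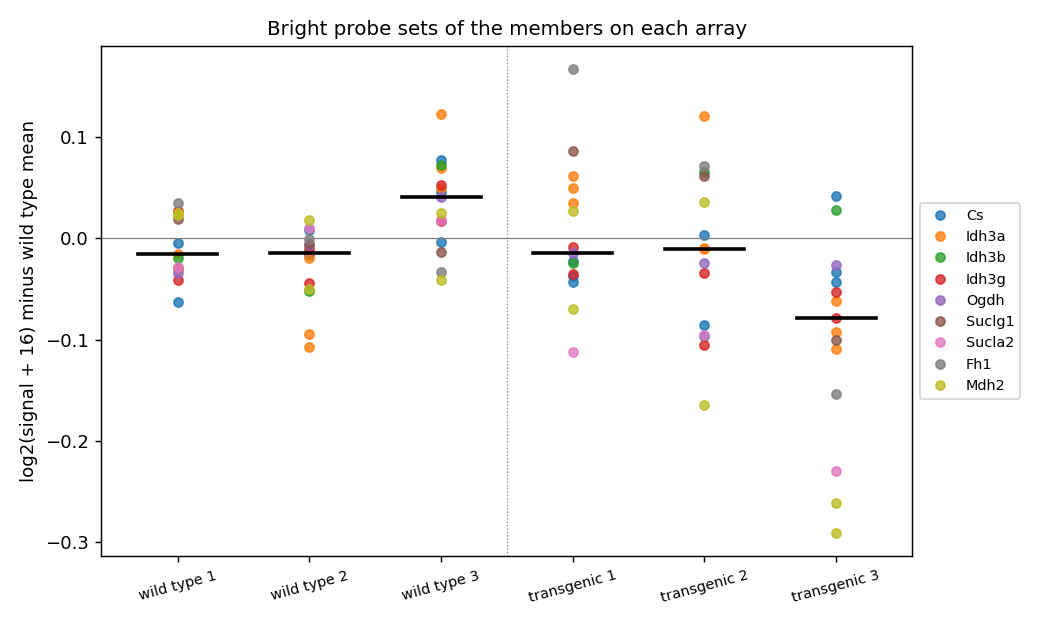
Log2(signal + 16) of the 15 bright probe sets on each of the 6 arrays, minus the wild type mean of the same probe set; colours give the gene and black bars the median of each array. Points spread furthest down on transgenic replicate 3, where both probe sets of Mdh2 and that of Sucla2 are lowest, and most lie above 0 on wild type replicate 3.

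How the members varied together over the 6 arrays is described by Pearson's r between their brightest probe sets, with no test. Suclg1, Fh1 and Mdh2 ran together, with r of 0.98 for Suclg1 and Fh1, 0.88 for Suclg1 and Mdh2 and 0.84 for Mdh2 and Fh1. Cs and Ogdh ran together at 0.91, while Cs and Fh1 gave -0.11. The 6 arrays share their pools and scaling between all probe sets. The probe sets outside the 9 genes with the closest match to their mean pattern were those of Pex11g, Sltm, Rabepk, Zfp870 and Nkap, with r of 0.989 to 0.997. All 5 had wild type means of at most 143 and were lowest on transgenic replicate 3, and 441 of 23110 probe sets compared, or 1.91%, had r over 0.9.

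The other enzymes of the cycle also held no called probe set. The 8 genes tested gave 16 probe sets, of which 0 were called and 8 were negative and 8 positive. Per gene the median difference was -0.03, over a range of -0.12 to 0.09. Succinate dehydrogenase, which is also complex II of the respiratory chain, gave -0.02 for Sdha, -0.08 for Sdhb, 0.09 for Sdhc and 0.01 for Sdhd. Idh2, the NADP-dependent mitochondrial isocitrate dehydrogenase, gave -0.12 with an adjusted p of 0.747. The 4 assembly factors of succinate dehydrogenase had a median of 0.11 with 0 of 5 probe sets called. Sdhaf3 gave 0.16, with an adjusted p of 0.680. Its transgenic arrays all lay above the wild type ones, as for 5.85% of all tested probe sets. Sdhaf2 gave 0.12, Sdhaf4 0.09 and Sdhaf1 -0.05.

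Pyruvate reaches the cycle through its mitochondrial carrier and pyruvate dehydrogenase. Of 14 genes of this step 12 were tested, with 0 of 22 probe sets called, 18 negative and 4 positive differences and a median per gene of -0.03. Pdk2, a kinase that switches the dehydrogenase off, had means of 2034 ± 161 in the wild type and 2297 ± 114 in the transgenic group (SD, n = 3), a difference of 0.18 with an adjusted p of 0.593. Pdha1, the E1 alpha subunit, gave 7770 ± 30.9 against 7176 ± 328, a difference of -0.12 with an adjusted p of 0.623 and groups that did not overlap. Its other probe set, 1449137_at, gave -0.05 with overlapping groups and an adjusted p of 0.917. Groups were separated downward for 1 of the 22 probe sets, against 7.50% of all tested. Pdhb, the E1 beta subunit, gave -0.13 and the kinase gene Pdk4 -0.12. Averaged over these 12 genes, transgenic replicate 3 stood at -0.11 against the wild type mean and the other transgenic arrays at -0.03 and -0.03.

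Enzymes and carriers that feed or drain the cycle were tested for 21 of 22 genes, with 0 of 48 probe sets called and a median per gene of -0.02. Of the 48 probe sets 31 were negative and 17 positive, and at limma's unadjusted p under 0.05 there were 7 lower and 0 higher. The transgenic arrays were all below the wild type ones for 7 and all above for 1, against the 7.50% and 5.85% of all tested probe sets. The smallest adjusted p of the list was 0.340, for probe set 1416632_at of the malic enzyme gene Me1, at -0.32 with every transgenic array lower, while the brighter probe set of Me1 gave -0.00 with overlapping groups. The malic enzyme gene Me3 gave -0.20 with an adjusted p of 0.562, Acly, which splits citrate in the cytosol, -0.21, and Glud1, glutamate dehydrogenase, 0.13 on 1 probe set and 0.01 on another of nearly the same brightness. Bdh1, an enzyme of ketone bodies, gave 0.25 with an adjusted p of 0.680. Among 12 regulators of mitochondrial biogenesis 0 of 24 probe sets were called, with a median of 0.05. The coactivator genes Pprc1 and Ppargc1a gave -0.35 and -0.26 and their relative Ppargc1b 0.16, with adjusted p of 0.688, 0.705 and 0.786. These are the values of the brightest probe sets. The 4 other probe sets of Ppargc1a ran from -0.41 to 0.21, and the highest of them, 1460336_at, had every transgenic array above every wild type array at an adjusted p of 0.738. Tfam, which packages mitochondrial DNA, gave -0.10. None of these 5 lists held a called probe set.

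**Figure D4:**
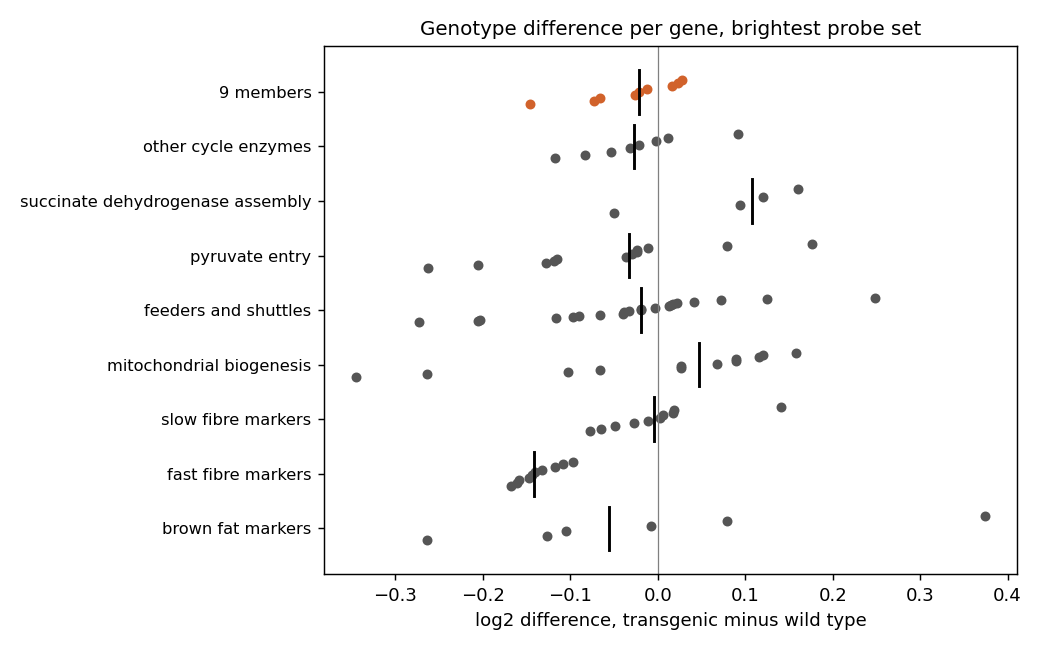
Log2 difference (transgenic minus wild type, horizontal axis) of the brightest probe set of each gene, by list; the 9 members are orange, other genes grey, and black bars mark the median of each list. The members centre on -0.02, the fast fibre markers on -0.14 and the slow fibre markers on -0.00.

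Oxidative and glycolytic fibres differ in mitochondrial content, and brown fat is rich in mitochondria, so their markers are given beside the enzymes. The 10 slow and oxidative fibre markers had a median of -0.00, with 5 positive and 5 negative. All 10 fast fibre markers were negative, with a median of -0.14 and 0 of 14 probe sets called, and for 13 of the 14 every transgenic array lay below every wild type array, against 7.50% of all tested and 10.9% of all bright probe sets. Their summed signal was 204973 to 206867 in wild type and 184902 to 192356 in transgenic muscle. The highest signal of any probe set was also lower on transgenic arrays, at 21385.5 to 22468.8 against 23547.1 to 23952.5 on wild type ones. The part of this in the marker values was not tested, and no share is given for probe sets of like brightness. The 6 brown fat markers had a median of -0.06, 2 positive and 4 negative, over a range of -0.26 to 0.37. Of their 12 probe sets 0 were called, 1 was separated downward and 2 upward, against 7.50% and 5.85% of all tested. Their summed signals were 16472 to 16979 in wild type and 15463 to 16385 in transgenic muscle. A sum is led by the brightest probe sets. The brown fat list also holds Ppargc1a, counted above among regulators of mitochondrial biogenesis, so it does not measure brown fat alone. The 6 endothelial markers were negative too, with a median of -0.20. Of their 7 probe sets 0 were called, with a smallest adjusted p of 0.313 in limma, and 3 were separated downward. The 7 general fibre markers had a median of -0.11, 1 positive and 6 negative. Of their 15 probe sets 0 were called and 0 were separated. The part of all these markers in the values of the enzymes was not tested.

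Promoter sequence was looked at as a feature the choice of genes did not use. RefSeq promoters of build GRCm38.p6, which run from 250 bases before to 50 after a start site, were matched for 8 of the 9 genes, with 13 windows in all, 6 of them of Ogdh and partly overlapping. Idh3a was not matched. Motifs of factors known to act on genes of mitochondria or housekeeping genes were searched on both strands. GGGCGGG, bound by Sp1, was in 7 of the 13 windows and in 25.6% of all 32851. The 7 belong to Cs, Fh1, Mdh2, Sucla2 and, with 3 overlapping windows, Ogdh. The core GCGCATGC of the NRF1 motif was in 2 overlapping windows of Ogdh and in 2.71% of all. AAGATGGCG of YY1 was in 1 window, of Idh3g, and in 1.40% of all. CCGGAAGT of GABPA and TCAAGGTCA of the oestrogen related receptors were in 0 of the 13 windows, against 3.89% and 0.423% of all. Below are the 90 bases before a start site, 5′ to 3′, for Cs and Sucla2 with the Sp1 motif in capitals and for Ogdh with the NRF1 core in capitals, shown because Cs is the content marker, Sucla2 is a gene with separated groups and Ogdh carries the NRF1 core. They lie at chr10:128337637-128337726, chr14:73552696-73552785 and chr11:6292468-6292557, all on the plus strand.
Cs: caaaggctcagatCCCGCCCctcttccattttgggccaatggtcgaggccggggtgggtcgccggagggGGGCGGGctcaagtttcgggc
Sucla2: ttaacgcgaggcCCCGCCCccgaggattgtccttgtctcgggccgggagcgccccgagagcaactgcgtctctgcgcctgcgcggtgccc
Ogdh: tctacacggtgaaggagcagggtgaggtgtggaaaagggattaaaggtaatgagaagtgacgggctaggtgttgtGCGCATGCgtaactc
A match is a description of these letters, and binding was not measured.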

How the data were processed

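Signals were read from the table of 6 Affymetrix Mouse430_2 arrays. The authors deposited a linear intensity per probe set, for which their processing notes name GCOS 1.1.1; neither algorithm nor target of scaling is named. Each array had a mean of 150.0 once 2% was trimmed from both ends, so the values hide any change common to most transcripts. The deposited run information, of other content than expression, gave the rounds of hybridisation and the fluidics modules. After leaving out 64 control rows, log2(signal + 16) was analysed, a scale that understates changes of dim transcripts. Of 45037 probe sets, 27022 above the 40th percentile entered limma 3.58.1 (R 4.3.3) without covariates and with an intensity trend. Tests were two-sided, with Benjamini-Hochberg adjustment over all fitted probe sets. The fit was tested on simulated data. Only the spread among pools enters the p-values, and the number of arrays limits the precision.

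Probe sets carry the symbols of GEO's platform table, brought up to date by gene ID with RefSeq (GRCm38.p6) for 34741 of 34945 probe sets with 1 symbol. The members and lists were chosen with earlier results of these data known. Named are all probe sets of the members, up to 4 genes of each other pathway list by smallest p on a gene's brightest probe set, and the 5 closest patterns. The partner genes Suclg2, Dlst, Sdha and Sdhd were named for their role. Me1 and the further probe sets of Glud1, Ppargc1a and Pdha1 were named after their values were seen. Protein sequences were not used here. Alternatives covered offset, scaling, filter, variance model, array weights, blocks, rounds and leaving out each array.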

Additional observations from a re-analysis of the deposited data

How the results depend on the processing

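None of the member probe sets, and none in the other pathway lists, was called under any of the 19 alternative fits. Cell type markers were not counted in these fits. The number called over all probe sets was 33, and became 50 with equal array medians, 17 with no filter, 1 with no intensity trend and 297 with a random block for the fluidics module, where each module held 1 genotype and the estimated correlation was -0.44; leaving out 1 array gave 18 (without wild type replicate 2) to 39. The median over the 9 genes was -0.02, and became 0.03 with equal array medians and -0.11 in round 2 alone, and leaving out 1 array gave -0.04 to 0.01. Deviations of same-numbered replicates had correlations of 0.00295, 0.0601 and 0.0492. For wild type replicates 2 and 3, but not 1, the same-numbered transgenic array was the best match. Deviations centred on 3 arrays are tied to one another, so they cannot decide whether the numbers pair the arrays. With a replicate block the median was -0.02 with 36 probe sets called. The differences of Mdh2 1416478_a_at, Sucla2 1452206_at and Ogdh 1445632_at kept their sign in all alternatives. Their smallest adjusted p in limma were 0.0739, 0.107 and 0.131, all from the fit with the module as a random block. In the other fits the smallest were 0.384, 0.446 and 0.495.

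Small differences changed sign. With equal array medians Cs 1422577_at was 0.025, Cs 1450667_a_at 0.025, Idh3a 1422501_s_at 0.033, Idh3a 1432016_a_at 0.038, Idh3g 1416788_a_at 0.019, Ogdh 1451274_at 0.029, Sdhaf1 0.0009, Suclg2 0.049 and Dlst 0.019. With quantile normalization Cs 1450667_a_at was 0.011, Idh3a 1432016_a_at 0.022 and Suclg1 -0.0069. In round 1 alone Cs 1450667_a_at was 0.022, Idh3a 1422501_s_at 0.054, Idh3a 1432016_a_at 0.037, Idh3a 1447701_x_at 0.0021, Idh3b 1441271_at 0.0020, Idh3g 1416788_a_at 0.0051, Ogdh 1451274_at 0.0010, Mdh2 1433984_a_at 0.011, Dld 0.015 and Suclg2 0.11. With the module as a random block Idh3a 1422500_at was -0.010. With array weights Idh3a 1422501_s_at was 0.0021 and Suclg2 0.0029. Leaving out 1 array gave ranges across 0 of -0.059 to 0.0094 for Cs 1422577_at, -0.057 to 0.013 for Cs 1450667_a_at, -0.029 to 0.091 for Idh3a 1422500_at, -0.065 to 0.020 for Idh3a 1422501_s_at, -0.036 to 0.013 for Idh3a 1432016_a_at, -0.23 to 0.11 for Idh3a 1447701_x_at, -0.042 to 0.17 for Idh3b 1418885_a_at, -0.0032 to 0.059 for Idh3b 1418886_s_at, -0.020 to 0.074 for Suclg1, -0.12 to 0.031 for Mdh2 1433984_a_at, -0.041 to 0.12 for Fh1, -0.091 to 0.0056 for Dld, -0.15 to 0.14 for Sdhaf1, -0.056 to 0.079 for Suclg2 and -0.081 to 0.010 for Dlst 1423710_at. The cause was not tested.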

Other observations

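Oxct1 encodes the enzyme that uses succinyl-CoA of the cycle to activate ketone bodies. It was singled out after its values were seen. Its probe set 1428140_at gave 2737, 2473 and 2842 in wild type and 2447, 2322 and 2282 in transgenic muscle. Every transgenic array was lower, with a difference of -0.19 and an adjusted p of 0.526 in limma. On 1436750_a_at the difference was -0.27 and on 1455804_x_at -0.32, again with groups that did not overlap and adjusted p of 0.539 and 0.525. The brightest probe set, 1449059_a_at, gave -0.07 with overlapping groups and an adjusted p of 0.825. None of the 4 passed the threshold, and in the 19 alternatives to which each was put all 4 kept a negative difference. The alternatives reuse the same arrays, so the kept sign is not independent evidence. The smallest adjusted p in limma was 0.0907, for 1455804_x_at when modules were random blocks, and no module held both genotypes. In the other fits the smallest was 0.292, for 1436750_a_at when the rounds were blocked. Acat1, the thiolase of the next step, was singled out likewise and gave a negative difference with separated groups on 1424182_at, at 856 ± 76.7 in wild type and 725 ± 33.6 in transgenic muscle (SD, n = 3) with an adjusted p of 0.539. Its 2 other probe sets were also negative, with overlapping groups and adjusted p of 0.745 each. Groups were separated downward for 7.50% of all tested probe sets and 10.9% of all bright ones. In the list of feeding and draining genes, from which both genes were picked, this held for 7 of 48.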
